A study of Mus musculus with 42 samples.

Results

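*Gal*, *Nptx2*, *Tac2* and *Ddc* are 4 genes best known from neurons that were read out on both sides of the heart field in mouse embryos. They were selected on their right over left values in these same libraries, as genes whose asymmetry differed between laterality groups, and they are 4 of the 56953 genes in the count table. The heart fields came from 21 embryos at embryonic day 8.5, each cut into a left and a right piece, which gives 42 libraries of bulk RNA. Of the embryos, 5 were Ccdc40+/+ with a rightward loop of the heart tube (wild type), 11 were Ccdc40lnks/lnks with a rightward loop (mutant rightward) and 5 were Ccdc40lnks/lnks with an inverted loop (mutant inverted). The lnks allele is a chemically induced nonsense mutation that all cells of a mutant carry, *Ccdc40* is needed for the beat of motile cilia, and all embryos share a C57Bl6J background. The mutants with an inverted loop were a minority picked out of many litters by the shape of the heart tube. The mutants with a rightward loop are pooled here, although the study divided them between laterality classes by the asymmetry of their expression, and the labels do not give those classes or the side of other organs. The dissected piece was the dorsal pericardial wall with its heart progenitors, and it held neighbouring tissue as well. Its label was checked with 10 markers of heart field mesoderm. Their summed level was 399 to 788 CPM (counts scaled to the library total by the TMM method) over all libraries. None was at 0 in all libraries of a group. These markers show that heart field tissue was present, but not how much of each piece it made up. The published dissection removed the heart tube. In mutant rightward embryos, 8 heart tube muscle genes summed to 1083 to 5035 CPM on the left and 306 to 5533 on the right. The source of these muscle transcripts was not tested.

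Galanin, the product of *Gal*, and neurokinin B, the product of *Tac2*, are peptides that are cut out of longer precursors and released from dense-core granules. They act on receptors coupled to G proteins, which are GALR1, GALR2 and GALR3 for galanin and mainly TACR3 for neurokinin B. *Nptx2* encodes a neuronal pentraxin, a secreted protein that gathers AMPA receptors at synapses. *Ddc* encodes aromatic amino acid decarboxylase, a cytosolic enzyme that makes dopamine from L-DOPA and serotonin from 5-hydroxytryptophan, so that it is the one member that is not itself secreted. Outside the nervous system, *Gal* is known from the atrioventricular canal, and a form of *Ddc* is known to be imprinted in the embryonic heart.

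On GRCm39, *Gal* lies on the minus strand at chr19:3459912-3464881, *Nptx2* on the plus strand at chr5:144482692-144500381, *Tac2* on the plus strand at chr10:127560347-127567638 and *Ddc* on the minus strand at chr11:11762602-11848150. All 4 are protein-coding genes, and no pair shares a chromosome. The promoter windows below are shown because counts per gene add up all transcripts of a gene, and *Ddc* has separate starts. RefSeq sequences of the build GRCm38.p6 were available for 3 members, and each was placed on GRCm39 by its only exact match. Each window runs from 250 bases before a transcript start to 50 bases after it, and capitals mark the letters of a searched motif on either strand. The set of promoter sequences used here held no entry for *Nptx2*.
*Gal*, chr19:3464495-3464794, minus strand: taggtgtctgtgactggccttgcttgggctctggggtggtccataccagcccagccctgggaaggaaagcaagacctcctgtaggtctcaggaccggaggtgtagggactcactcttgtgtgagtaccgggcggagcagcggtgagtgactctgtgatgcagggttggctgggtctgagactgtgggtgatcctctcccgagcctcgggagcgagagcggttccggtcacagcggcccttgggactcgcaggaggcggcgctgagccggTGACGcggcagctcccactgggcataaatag
*Tac2*, chr10:127560097-127560396, plus strand: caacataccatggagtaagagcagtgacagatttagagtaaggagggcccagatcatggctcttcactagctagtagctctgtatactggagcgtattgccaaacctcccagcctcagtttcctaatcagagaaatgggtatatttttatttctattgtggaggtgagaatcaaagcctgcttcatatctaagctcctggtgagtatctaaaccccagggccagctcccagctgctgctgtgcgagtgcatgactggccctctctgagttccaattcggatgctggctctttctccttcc
*Ddc* upstream start, chr11:11848095-11848394, minus strand: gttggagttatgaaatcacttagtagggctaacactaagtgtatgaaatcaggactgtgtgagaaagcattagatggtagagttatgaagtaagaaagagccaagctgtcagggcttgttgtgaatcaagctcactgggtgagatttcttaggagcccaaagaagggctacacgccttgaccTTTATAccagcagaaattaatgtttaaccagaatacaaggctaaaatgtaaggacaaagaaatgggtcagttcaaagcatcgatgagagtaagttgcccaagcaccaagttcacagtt
*Ddc* downstream start, chr11:11840359-11840658, minus strand: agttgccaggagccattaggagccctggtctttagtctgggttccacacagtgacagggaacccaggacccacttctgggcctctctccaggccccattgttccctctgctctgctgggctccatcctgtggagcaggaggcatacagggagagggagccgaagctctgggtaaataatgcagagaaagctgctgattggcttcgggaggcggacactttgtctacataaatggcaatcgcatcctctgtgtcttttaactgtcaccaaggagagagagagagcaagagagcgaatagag
The windows were searched on both strands for the cores of 4 elements, which do not overlap in them. TGACG, the core of the cAMP response element, was present once, in *Gal*, and occurs in 20.8% of 32851 promoter windows of the same length. TATAAA, the TATA box, was present once, on the strand opposite to the gene in the upstream window of *Ddc*, and occurs in 13.6%. AGATAA, the letters bound by factors of the GATA family, occurs in 11.2% of windows. The T-box core GGTGTG occurs in 19.0%, and neither of these was found in these 4 windows. The 2 windows of *Ddc* hold transcript starts that lie 6 and 7742 bases from the annotated start of the gene, and their GC content was 41.3% and 54.3%. The gene-level counts do not tell which start was used.

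Depth had totals from 36073684 to 62970327 counts per library. The level of *Ccdc40* was 15.2 to 26.5 CPM in wild types and 8.83 to 14.8 CPM in mutants, without overlap. Both libraries of the mutant rightward embryo 15_5 stood apart from the other 40 libraries. In this embryo, 135 of 26335 genes were at least 4-fold above the highest value of any other library on both sides. Levels of *Tac2* are given below with and without it.

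Each member passed the filter on low counts in every comparison. Their level per length (CPM per kilobase of the canonical transcript) had a median over the 42 libraries of 7.27 for *Ddc*, 3.68 for *Nptx2*, 2.86 for *Gal* and 2.52 for *Tac2*. *Ddc* was above *Nptx2* in all 42 libraries and above *Gal* and *Tac2* in 37 libraries each. This holds for the canonical length, which is 3523 bases for *Ddc*, whose exons together hold 10308. The order with other lengths was not tested. The order of the 3 others was not fixed, as *Nptx2* was above *Gal* in 25 and above *Tac2* in 26 libraries, and *Gal* above *Tac2* in 27.

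*Gal* was higher on the right in each of the 5 mutant inverted embryos and on no fixed side in the other groups. In mutant inverted embryos, left and right levels were 2.32 and 9.97 CPM in embryo 2_7, 3.81 and 8.85 in 4_6, 0.27 and 0.83 in 10_3, 1.45 and 4.00 in 18_2, and 1.30 and 9.55 in 32_2. In wild types they were 2.79 and 3.06 CPM in embryo 7_1, 9.37 and 2.65 in 8_1, 2.62 and 0.29 in 10_1, 1.68 and 1.89 in 17_7, and 3.86 and 3.08 in 22_4. In the 11 mutant rightward embryos, the left ranged from 0.72 to 4.84 CPM with a median of 1.92, and the right from 0.022 to 5.68 with a median of 1.71. Levels on the right of 4 mutant inverted embryos, all but 10_3, were above those on the right of all wild types, and embryo 10_3 was low on both sides. The mutant rightward embryo 19_4, at 5.68 CPM on the right, was above the mutant inverted embryo 18_2. The mean log2 right over left was 1.81 ± 0.66 (SD, n = 5) in mutant inverted embryos, −0.41 ± 1.40 (SD, n = 11) in mutant rightward embryos and −0.96 ± 1.39 (SD, n = 5) in wild types, with a prior count of 2. The means of these groups rested on single embryos, as they were −0.099 for mutant rightward embryos without 2_2 and −0.64 without 19_4, and −0.46 for wild types without 10_1. The groups overlapped, because the mutant rightward embryo 19_4 reached 1.91 while the lowest mutant inverted embryo was at 1.20. The lowest value, −3.51 in the mutant rightward embryo 2_2, rests on 38 counts on the left and 1 on the right, a ratio of 0.0307 with a 95% exact binomial interval of 0.000758 to 0.182 that covers counting error only.

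*Nptx2* was higher on the right in each mutant inverted embryo and on the left in nearly all others. In mutant inverted embryos, left and right levels were 5.69 and 14.8 CPM in embryo 2_7, 3.00 and 9.75 in 4_6, 5.11 and 9.91 in 10_3, 4.06 and 16.3 in 18_2, and 4.58 and 14.8 in 32_2. All 5 lefts were below all 5 rights. In wild types they were 9.42 and 6.17 CPM in embryo 7_1, 14.8 and 4.61 in 8_1, 14.0 and 4.83 in 10_1, 9.37 and 9.20 in 17_7, and 13.0 and 12.9 in 22_4. The right was therefore lower in all 5 wild types, but in embryos 17_7 and 22_4 by a log2 ratio of only −0.026 and −0.011. In mutant rightward embryos, the left ranged from 6.81 to 14.8 CPM with a median of 11.4 and the right from 3.13 to 10.7 with a median of 5.67, and 10 of 11 were higher on the left. Embryo 19_4 was the exception, with a log2 right over left of 0.56. Mean log2 right over left was 1.54 ± 0.39 (SD, n = 5) in mutant inverted, −0.85 ± 0.69 (SD, n = 11) in mutant rightward and −0.77 ± 0.80 (SD, n = 5) in wild type embryos.

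*Ddc* was also higher on the right in each mutant inverted embryo and mostly on the left in the other groups, with smaller ratios. In mutant inverted embryos, left and right levels were 20.8 and 30.2 CPM in embryo 2_7, 23.1 and 34.0 in 4_6, 15.2 and 31.7 in 10_3, 22.4 and 46.5 in 18_2, and 15.5 and 29.4 in 32_2. Again no left of this group reached any of its rights. In wild types they were 27.0 and 19.6 CPM in embryo 7_1, 34.7 and 21.8 in 8_1, 33.0 and 15.2 in 10_1, 27.5 and 20.9 in 17_7, and 25.8 and 31.2 in 22_4, so that 4 of 5 were higher on the left. In mutant rightward embryos, the left ranged from 16.0 to 39.0 CPM with a median of 31.5 and the right from 10.8 to 32.5 with a median of 24.1, and 9 of 11 were higher on the left. The other two, 15_5 and 19_4, had nearly equal sides, with log2 right over left of 0.022 and 0.017. Mean log2 right over left was 0.82 ± 0.26 (SD, n = 5) in mutant inverted, −0.32 ± 0.23 (SD, n = 11) in mutant rightward and −0.47 ± 0.50 (SD, n = 5) in wild type embryos, where it was −0.31 without embryo 10_1. The lncRNA 1700042O10Rik overlaps exons of *Ddc* on the other strand and had 11 to 68 counts per library, where *Ddc* had at least 489, and the use of strand in counting is not given in the sources used here.

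*Tac2* was the least regular member. In mutant inverted embryos, left and right levels were 0.74 and 1.11 CPM in embryo 2_7, 0.74 and 0.45 in 4_6, 1.69 and 3.09 in 10_3, 1.40 and 2.61 in 18_2, and 0.53 and 1.97 in 32_2. In wild types they were 1.54 and 1.07 CPM in embryo 7_1, 1.35 and 1.09 in 8_1, 2.23 and 1.38 in 10_1, 8.38 and 2.88 in 17_7, and 1.81 and 1.96 in 22_4. The right was higher in 4 of 5 mutant inverted embryos and in 1 of 5 wild types. In the 11 mutant rightward embryos, the left ranged from 0.44 to 30.4 CPM with a median of 1.99, the right from 0.26 to 43.3 with a median of 2.07, and the right was higher in 7. Without embryo 15_5, which held both maxima, the highest levels were 3.79 CPM on the left and 5.53 on the right. Mean log2 right over left was 0.68 ± 0.90 (SD, n = 5) in mutant inverted, 0.20 ± 1.41 (SD, n = 11) in mutant rightward and −0.58 ± 0.61 (SD, n = 5) in wild type embryos. With single embryos left out, the mean was 0.40 without 32_2 and 1.03 without 4_6 in mutant inverted embryos, 0.028 without 32_3 and 0.50 without 2_2 in mutant rightward embryos, and −0.34 without 17_7 in wild types. Mutant inverted and mutant rightward embryos thus overlapped over most of their range. Several of these libraries held few *Tac2* counts, the lowest being 12 on the right of embryo 2_2.

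**Figure D1:**
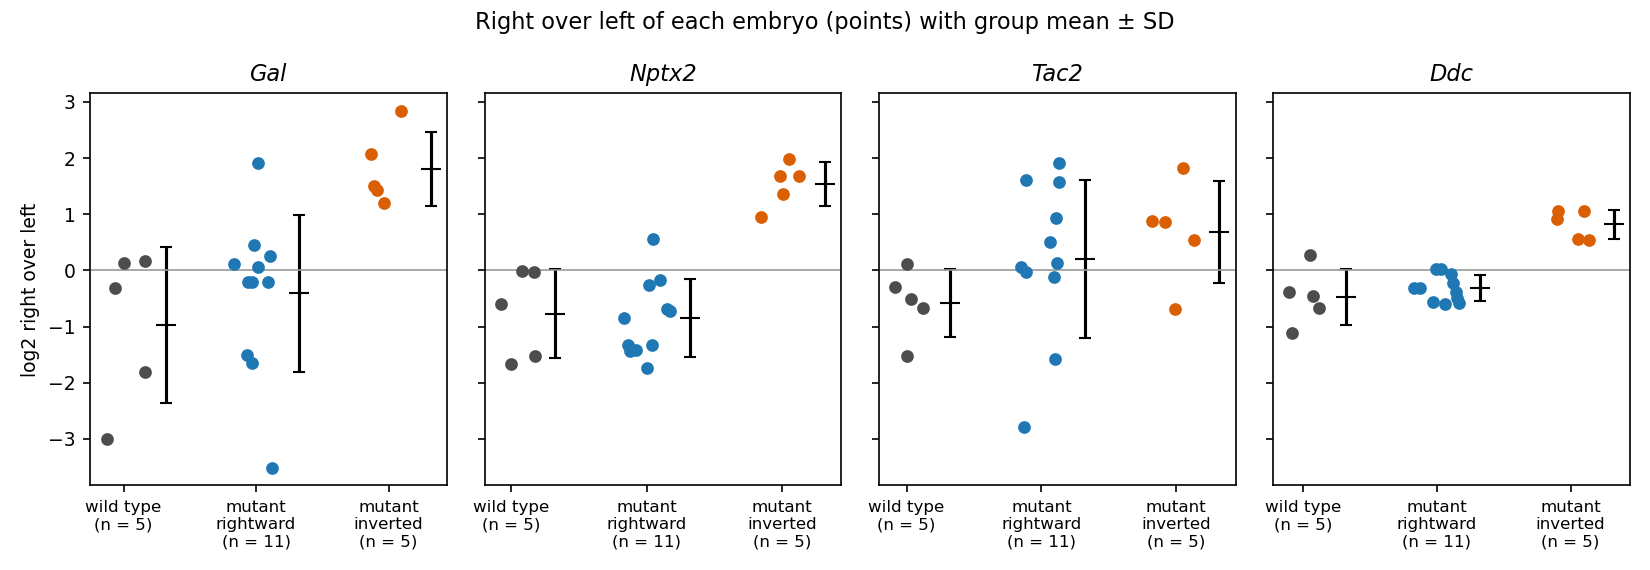
Log2 right over left (y axis, prior count of 2) of each embryo for *Gal*, *Nptx2*, *Tac2* and *Ddc*, with the group mean ± SD beside the points. For *Nptx2* and *Ddc*, the 5 mutant inverted embryos lie above all 11 mutant rightward embryos, while for *Gal* and *Tac2* the groups overlap.

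**Figure D2:**
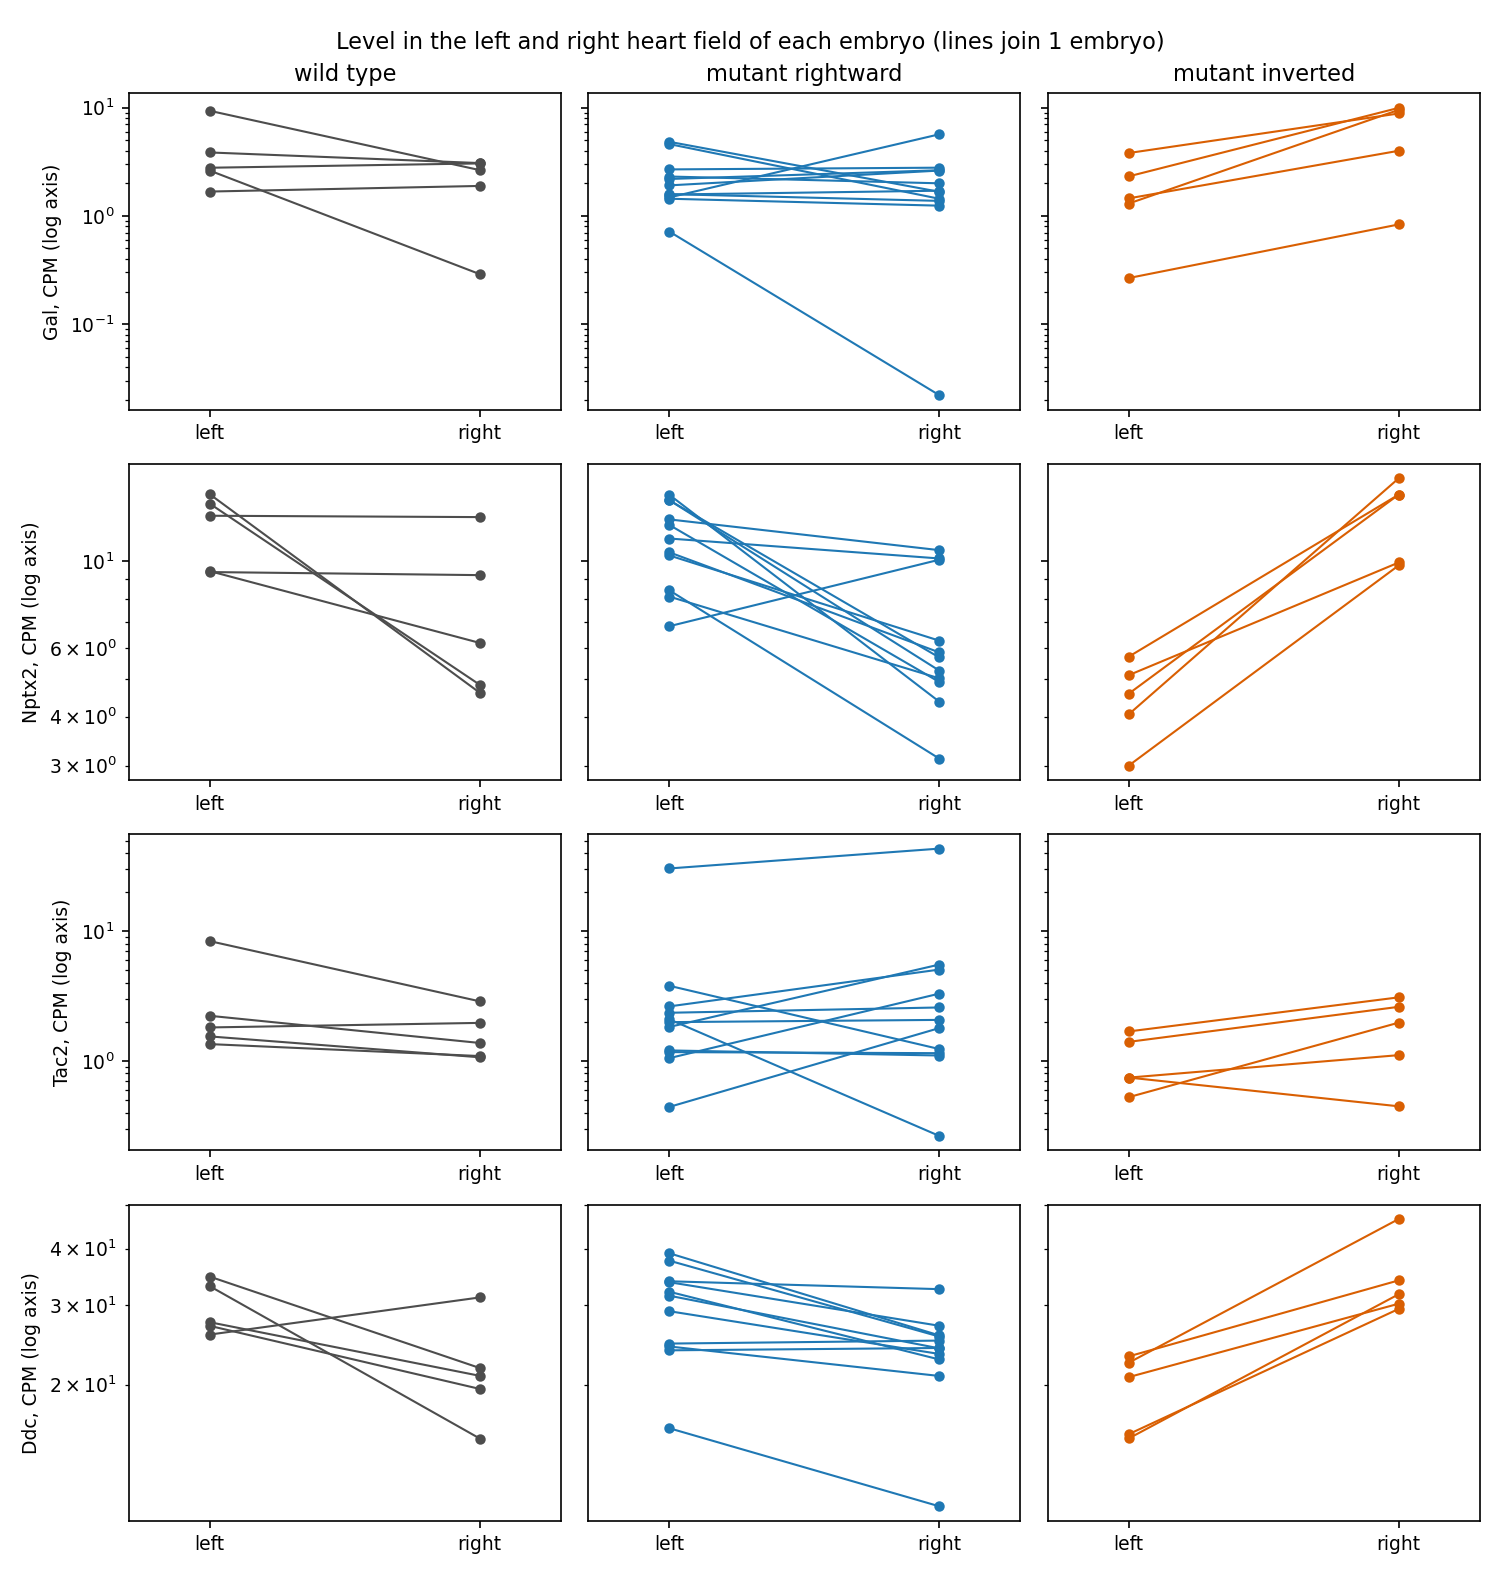
Level in CPM (log y axis, with its own range for each gene) on the left and right of each embryo, with a line for each embryo and a column for each group. In the mutant inverted column, all lines rise to the right except that of embryo 4_6 for *Tac2*.

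Since the members were chosen by their right over left values, no test of these values is given. The fitted log2 difference of right over left between mutant inverted and mutant rightward embryos was 2.40 ± 0.34 (SE) for *Nptx2*, 2.14 ± 0.60 for *Gal*, 1.14 ± 0.16 for *Ddc* and 0.48 ± 0.58 for *Tac2* (edgeR, embryo as a block). Between mutant rightward and wild type embryos it was −0.09 ± 0.33 for *Nptx2*, 0.60 ± 0.60 for *Gal*, 0.16 ± 0.16 for *Ddc* and 0.89 ± 0.56 for *Tac2*. With one embryo left out, these values ranged from −0.31 (without 8_1) to 0.11 (without 22_4) for *Nptx2*, from 0.20 (without 10_1) to 0.90 (without 7_1) for *Gal*, from −0.0026 (without 10_1) to 0.35 (without 22_4) for *Ddc* and from 0.63 (without 17_7) to 1.14 (without 2_2) for *Tac2*. These contrasts share the mutant rightward embryos. Of all 26335 genes, 0.342% had every mutant inverted embryo above every mutant rightward embryo, as *Nptx2* and *Ddc* did, and 7.35% were higher on the right in all 5 mutant inverted embryos, as *Gal*, *Nptx2* and *Ddc* were. The lowest mutant inverted and highest mutant rightward values were 0.54 and 0.022 for *Ddc*, 0.95 and 0.56 for *Nptx2*, 1.20 and 1.91 for *Gal*, and −0.68 and 1.92 for *Tac2*.

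The members were also counted per embryo, and since they were chosen by the same values, the counts by group restate that choice. In mutant inverted embryos, 4 of 5 had all 4 members higher on the right, and 4_6 had 3. In wild types, none had more than 2 of the 4 higher on the right, and in mutant rightward embryos 3 had none, 4 had 1, 2 had 2 and 1 each had 3 and all 4. The embryo with all 4 higher on the right was again 19_4, which the labels place among rightward loops. With group means removed, right over left across the 21 embryos correlated at r = 0.63 between *Nptx2* and *Ddc*, 0.58 between *Gal* and *Nptx2*, 0.53 between *Gal* and *Ddc*, 0.43 between *Gal* and *Tac2*, 0.27 between *Tac2* and *Ddc* and 0.24 between *Nptx2* and *Tac2*. These points share libraries, the same value for other pairs of genes was not computed, and the correlations are a description.

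Whether the members also changed in total amount was tested on the counts of both sides added up per embryo. These totals hold the same left and right counts by which the members were chosen, so the p-values are not free of that choice. For *Gal*, right levels averaged 6.64 CPM in mutant inverted and 2.11 in mutant rightward embryos, and left levels 1.83 and 2.31. Between mutant inverted and mutant rightward embryos, none of the 4 members passed an adjusted p of 0.05 in edgeR's quasi-likelihood test, in which 0% of 27606 genes passed. The log2 difference was −0.01 ± 0.14 (SE) for *Nptx2* and 0.02 ± 0.14 for *Ddc*. It was 0.93 ± 0.39 for *Gal* and −1.68 ± 0.74 for *Tac2*, which had unadjusted p of 0.027 and 0.033 and adjusted p of 1.00 each with edgeR. The difference of *Gal* was 0.56 without the mutant inverted embryo 4_6 and 1.21 without 10_3. With DESeq2, no member passed either, and *Tac2* was given no adjusted p. In CPM, the mean of both sides was 8.79 ± 1.75 (SD, n = 5) for *Nptx2* in mutant inverted and 8.88 ± 1.74 (SD, n = 11) in mutant rightward embryos, and 26.9 ± 4.82 and 26.7 ± 5.64 for *Ddc*. The sides of *Nptx2* and *Ddc* thus changed places in mutants with an inverted loop while their totals lay within the spread between embryos. In bulk samples, fewer cells of a type and less RNA per cell cannot be told apart.

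Between mutant rightward and wild type embryos, 0.0254% of 27606 genes passed, and no member did, at an unadjusted or an adjusted p. The log2 difference was −0.58 ± 0.40 (SE) for *Gal*, −0.21 ± 0.14 for *Nptx2*, 0.03 ± 0.15 for *Ddc* and 1.31 ± 0.71 for *Tac2*, with adjusted p from 0.97 to 1.00 (edgeR). With single embryos left out, the difference of *Nptx2* was −0.075 without the wild type 22_4 and −0.32 without the wild type 8_1, and that of *Ddc* was −0.014 without the mutant rightward embryo 18_1 and 0.12 without 2_2. Exact two-sided permutation tests of the mean log2 level gave p of 0.16 to 0.89 over the 8 comparisons, and 0.78 to 0.89 after adjustment. The value of *Tac2* rested on embryo 15_5, whose level of 36.9 CPM compared with 1.12 to 3.85 CPM in the 10 other mutant rightward embryos. Without it, the log2 difference was −0.02 against wild types and −0.65 between mutant inverted and mutant rightward embryos.

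**Figure D3:**
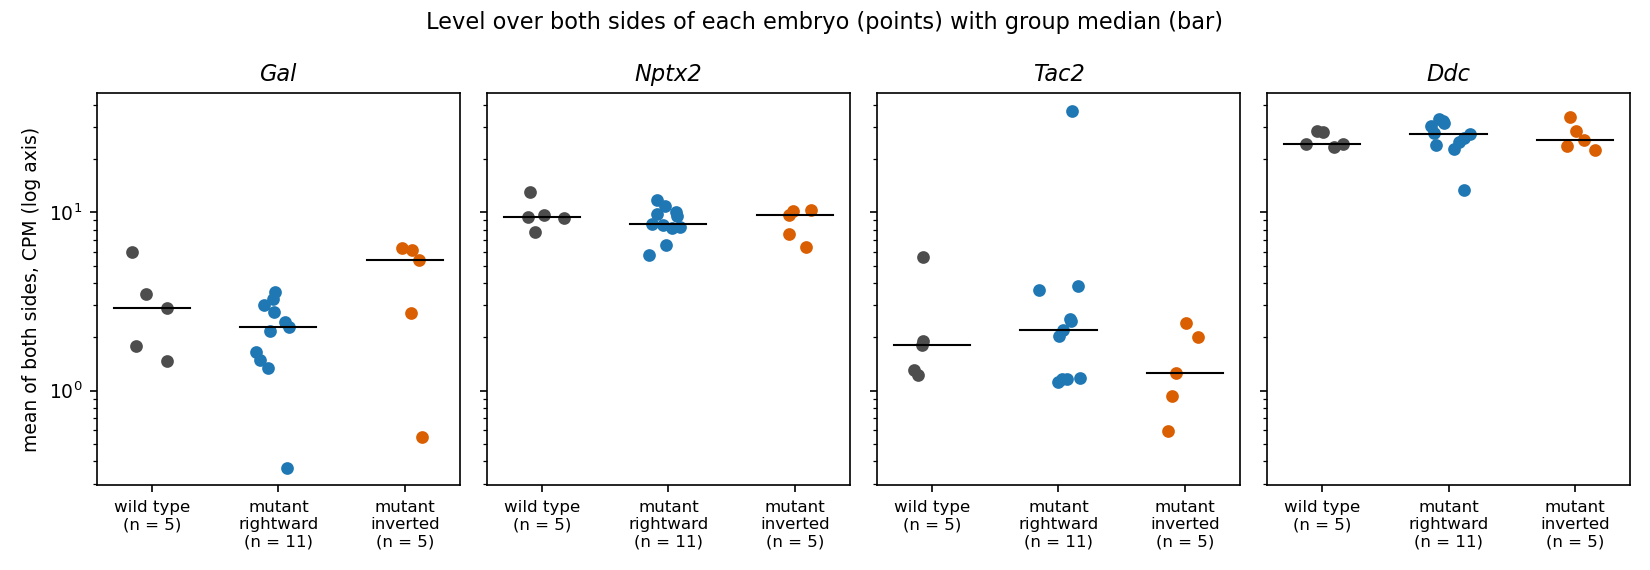
Mean of the left and right level in CPM (log y axis) of each embryo, with the group median as a bar. The groups overlap for each gene, and the mutant rightward embryo 15_5 stands alone for *Tac2* at 36.9 CPM.

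Levels of the members across the 11 mutant rightward embryos were compared in 6 pairs. *Gal* and *Tac2* levels went together by rank, with Spearman rho = 0.79 (permutation p = 0.0051, adjusted 0.031), while Pearson r was 0.47 (permutation p = 0.010, adjusted 0.060) and 0.50 without the 2 embryos farthest from the median of *Gal*. The pass after adjustment was lost without embryo 15_5, the only embryo left out alone for these pairs. Without this embryo, a choice made after seeing the data, rho was 0.76 (permutation p = 0.016, adjusted 0.094) and r was 0.64 (permutation p = 0.022, adjusted 0.10), and none of the 6 pairs passed after adjustment, with 2 at an unadjusted permutation p of r and 1 of rho below 0.05. Between *Gal* and *Ddc*, r was 0.78 (permutation p = 0.14, adjusted 0.22, rho = −0.036 with permutation p = 0.93). Between *Gal* and *Nptx2* it was 0.56 (permutation p = 0.15, adjusted 0.22, rho = 0.16 with permutation p = 0.63). Without embryos 2_2 and 18_1, which were left out together and not singly, these r were −0.088 and −0.51. For *Nptx2* and *Ddc*, r was 0.74 (permutation p = 0.026, adjusted 0.077), rho was 0.52 (permutation p = 0.11, adjusted 0.32) and r was 0.095 without embryos 2_2 and 1_6. The pairs of *Tac2* with *Nptx2* and *Ddc* had r of −0.0041 and 0.18, rho of 0.073 each and unadjusted permutation p from 0.57 to 0.96, and r was −0.24 and 0.026 without the 2 farthest embryos of each.

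Receptors and partners of the members were tested as well, from lists of whole pathways. None of the 3 tested genes of the galanin system passed in mutant inverted embryos, at an adjusted or unadjusted p below 0.05 in edgeR, or with DESeq2, while 2.04% of 22960 genes passed in edgeR, 3468 had an unadjusted p below 0.05 and DESeq2 called 8.84% of 19844. *Galr1* had a log2 right over left of −1.36 ± 0.93 (SE) and *Galr2* of −0.14 ± 0.54, with adjusted p of 0.56 and 0.94 in edgeR. *Galr2* reached its highest level in embryo 15_5, with 3.51 CPM on the left and 5.32 on the right, against at most 0.62 in the other libraries. *Galr3* had at most 12 counts in any library and passed the filter in the fit of all libraries but not in mutant inverted embryos alone. The list had a median of −0.14 beside −0.01 over all genes.

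The tachykinin system was hardly present. *Tacr3*, the main receptor of neurokinin B, had at most 26 counts, *Tac1*, which encodes substance P, had at most 6, and *Tacr2*, the receptor of neurokinin A, had at most 5 counts in a library. *Tacr1*, the receptor of substance P, was the only one of 5 listed genes tested in mutant inverted embryos, at a log2 right over left of 0.22 ± 0.53 (SE, adjusted p = 0.90, edgeR). Among pentraxins and AMPA receptors, none of 7 tested genes passed in edgeR, 3 had an unadjusted p below 0.05 and 2 passed in DESeq2. Over all genes in mutant inverted embryos, these values were 2.04%, 3468 of 22960 and 8.84%. *Nptx1*, the closest relative of *Nptx2*, was at −0.24 ± 0.42 (SE, adjusted p = 0.85, edgeR), and *Nptxr*, the membrane-bound receptor of the family, at −0.17 ± 0.27 (adjusted p = 0.83). *Nptx1* was higher on the right in 2 of 5 mutant inverted embryos.

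Of 17 tested genes for monoamine synthesis, transport and breakdown, 1 rose on the right in mutant inverted embryos, 6 had an unadjusted p below 0.05 and 4 passed in DESeq2, beside 2.04%, 3468 of 22960 and 8.84% over all genes. The gene called in edgeR was *Pnmt*, which makes adrenaline from noradrenaline, with 2.28 ± 0.87 CPM on the left and 4.95 ± 1.78 on the right (SD, n = 5) and a log2 right over left of 1.13 ± 0.18 (SE, adjusted p = 0.022, edgeR). Without embryo 18_2, 32_2 or 4_6 it no longer passed, at log2 values from 1.03 to 1.33 over all embryos left out in turn and adjusted p of up to 0.11. *Th*, which makes the L-DOPA that DDC uses, was at 0.81 ± 0.34 (SE, adjusted p = 0.31) and *Dbh*, which makes noradrenaline, at 0.91 ± 0.39 (adjusted p = 0.32) with at most 25 counts per library. *Slc18a2*, the vesicular monoamine transporter, was measured well, at 26.6 ± 1.53 CPM on the left and 28.0 ± 3.12 on the right (SD, n = 5), and its log2 right over left was 0.08 ± 0.07 (SE, adjusted p = 0.64, edgeR). In the difference between mutant inverted and mutant rightward embryos, for which 0.311% of 26335 genes passed, none of the 18 tested genes of this list did in edgeR or DESeq2, and 2 had an unadjusted p below 0.05.

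Among 22 tested precursors of other neuropeptides, 1 passed in mutant inverted embryos in edgeR, 6 had an unadjusted p below 0.05 and 2 passed in DESeq2. Over all genes, these values were 2.04%, 3468 of 22960 and 8.84%. The gene called in edgeR was *Cck*, the precursor of cholecystokinin. It rose on the right by 1.44 ± 0.28 on the log2 scale (SE, adjusted p = 0.046, edgeR), from 1.28 ± 0.76 to 3.45 ± 1.70 CPM (SD, n = 5). It passed without embryo 2_7, but not without any one of the 4 other embryos, at log2 values from 1.25 to 1.73 and adjusted p of up to 0.20. Of 10 tested genes for peptide processing and dense-core granules, 4 had an unadjusted p below 0.05 and 2 passed in DESeq2, beside 3468 of 22960 and 8.84% over all genes. In edgeR, where 2.04% of all genes passed, *Pam* alone of this list did. It rose by 0.69 ± 0.07 (SE, adjusted p = 0.0049, edgeR), from 27.5 ± 2.39 to 44.3 ± 7.86 CPM. *Pam* encodes the enzyme that amidates the ends of peptides such as galanin and neurokinin B, and it is also known to be abundant in atrial muscle. The list had a median of −0.32, with 7 of 10 genes below 0. None of these genes passed for the difference between mutant inverted and mutant rightward embryos in edgeR. In wild types alone and in mutant rightward embryos alone, no gene of the pathway lists passed, where 0% of 23182 and 0.0263% of 22795 genes did in all.

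Genes of the atrioventricular canal and the sinus venosus were listed because *Gal* is known from that region of the heart, and the study had itself named *Bmp2*, *Gal* and *Shox2* from these samples, so that the lists are not independent evidence of direction. On the right of mutant inverted embryos, 3 of 6 genes of the atrioventricular canal rose, beside 2.04% of all genes called in either direction. *Bmp2*, a ligand of the BMP family, rose by 1.17 ± 0.12 (SE, adjusted p = 0.0056, edgeR), from 21.3 ± 5.10 to 47.4 ± 8.57 CPM (SD, n = 5). *Rspo3*, a secreted enhancer of WNT signalling, rose by 1.01 ± 0.15 (SE, adjusted p = 0.015), and *Msx2*, a homeobox gene that responds to BMP, by 0.54 ± 0.09 (SE, adjusted p = 0.027). The T-box repressors *Tbx2* and *Tbx3* were at 0.56 ± 0.14 and 0.80 ± 0.18 (SE, adjusted p = 0.095 and 0.071). In the sinus venosus list, 3 of 6 rose beside the same 2.04%, namely *Shox2*, a homeobox gene of the sinoatrial node, by 1.09 ± 0.19 (SE, adjusted p = 0.029), *Hcn4*, the pacemaker channel, by 0.76 ± 0.08 (adjusted p = 0.0054) and *Tbx5* by 0.74 ± 0.09 (adjusted p = 0.0070). For the difference between mutant inverted and mutant rightward embryos, for which 0.311% of all genes passed, *Bmp2* was the one gene of these lists that did, at 1.31 ± 0.25 (SE, adjusted p = 0.018, edgeR). This call was lost without embryo 18_2, 32_2 or 4_6, at log2 differences from 1.20 to 1.40 with any one embryo left out and adjusted p of up to 0.10. Within mutant inverted embryos, the calls of *Shox2* and *Msx2* were lost without any one embryo but 2_7 (log2 values from 0.98 to 1.31 and from 0.45 to 0.59, adjusted p of up to 0.13 and 0.10) and that of *Rspo3* without 18_2 or 32_2 (0.88 to 1.11, adjusted p of up to 0.060), while *Bmp2*, *Hcn4*, *Tbx5* and *Pam* passed without any one embryo. In the fit of all libraries, *Bmp2* was the one gene named from the pathway and heart lists that still passed, and without the block *Rspo3*, *Msx2*, *Pnmt*, *Cck* and the difference of *Bmp2* did not pass. The difference of *Bmp2* did not pass in males alone either. In mutant rightward embryos, *Bmp2* was at −0.15 ± 0.10 (SE, adjusted p = 1.00) and higher on the left in 8 of 11.

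**Figure D4:**
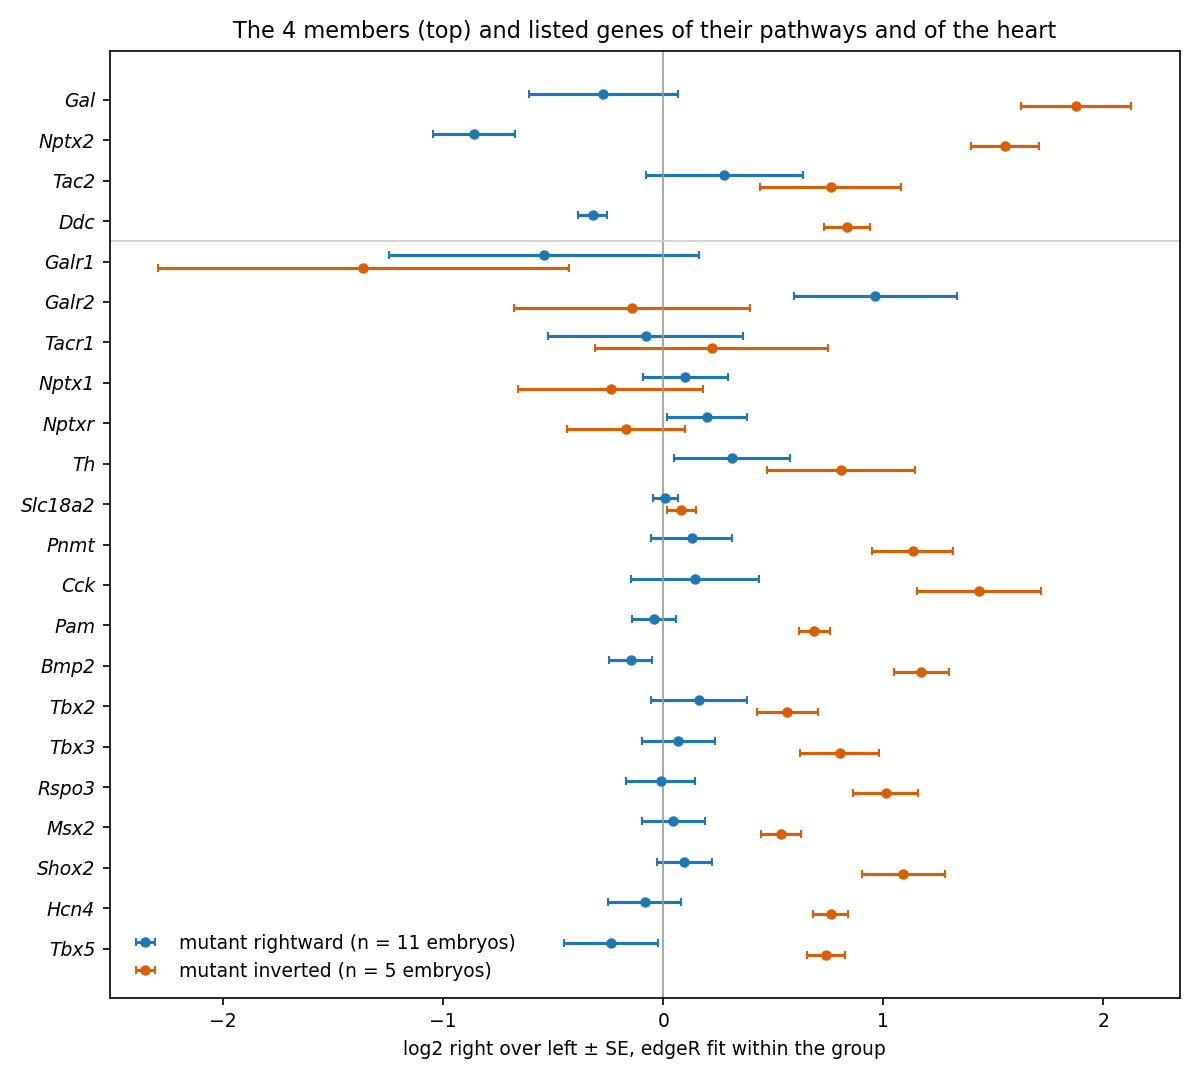
Fitted log2 right over left ± SE (x axis) in the 11 mutant rightward and the 5 mutant inverted embryos for the 4 members and for listed genes. In mutant inverted embryos, *Galr1* lies at −1.36 with the widest error, *Galr2*, *Tacr1*, *Nptx1* and *Nptxr* lie within 1 SE of 0, and *Pnmt*, *Cck*, *Pam* and the heart genes lie to the right of 0.

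The members are best known from neurons. In mutant inverted embryos, summed markers of neurons were higher on the side opposite to *Gal*, *Nptx2* and *Ddc*. The summed level of 10 neuron markers was lower on the right in 5 of 5 mutant inverted embryos, with 35.8 to 72.9 CPM on the left and 24.4 to 51.2 on the right, and that of 10 neural tube markers was lower in 5 of 5, with 88.4 to 166 CPM on the left and 40.7 to 109 on the right. No marker of either list was at 0 in all libraries of a group. None of the 9 tested neuron markers passed in edgeR, where 8 had an unadjusted p below 0.05 and 5 passed in DESeq2. Over all genes in this comparison, 3468 of 22960 had an unadjusted p below 0.05 and DESeq2 called 8.84% of 19844. Of 10 neural tube markers, 7 had an unadjusted p below 0.05 and 7 passed in DESeq2. In edgeR, where 2.04% of all genes passed, 3 of 10 neural tube markers, *Pax6*, *Hes5* and *Olig2*, fell on the right. Their calls were lost in the fit of all libraries, without the block, and without any one of several embryos (18_2, 2_7 or 4_6 for each, and 32_2 for *Pax6* and *Hes5*), with log2 values from −3.12 to −1.48 and adjusted p of up to 0.15. In mutant rightward embryos, the summed neuron markers ranged from 17.8 to 55.9 CPM on the left and from 16.9 to 62.3 on the right, and in wild types the medians were 49.6 and 34.6 CPM. Across the 21 embryos, with group means removed, right over left of the summed neuron markers correlated negatively with that of each member, from −0.73 for *Ddc* to −0.30 for *Tac2*.

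Markers of heart tube muscle were higher on the same side as the members in mutant inverted embryos, and so were some others. The sum of 8 muscle genes was higher on the right in all 5 mutant inverted embryos, with 1276 to 2474 CPM on the left and 2415 to 5143 on the right. Its mean log2 right over left was 1.06 ± 0.28 (SD, n = 5). Of the 8 genes, 6 passed in edgeR and 7 in DESeq2, beside 2.04% and 8.84% of all genes. The 6 genes, *Tnnt2*, *Myh6*, *Actc1*, *Myl7*, *Myl4* and *Ttn*, passed without any one embryo, but none of them in the fit of all libraries, and *Tnnt2* and *Myl7* did not pass without the block for the embryo. In mutant rightward embryos the sum was 1083 to 5035 CPM on the left and 306 to 5533 on the right, with a mean log2 ratio of −0.01 ± 0.79 (SD, n = 11), and in wild types 1855 to 4670 and 887 to 3803 with −0.07 ± 1.09 (SD, n = 5). With group means removed, the correlation over the 21 embryos was 0.89 for *Gal*, 0.77 for *Nptx2*, 0.74 for *Ddc* and 0.40 for *Tac2*. Correlations of right over left were also high with the summed markers of heart field mesoderm, at 0.69 for *Gal*, 0.72 for *Nptx2*, 0.61 for *Ddc* and 0.43 for *Tac2*. With foregut endoderm they were 0.79 for *Ddc* and 0.43 for *Tac2*, both above the values with muscle, and 0.54 for *Nptx2* and 0.47 for *Gal*. With paraxial mesoderm they were negative, from −0.74 for *Nptx2* to −0.31 for *Tac2*, and with endothelium from −0.29 for *Tac2* to 0.43 for *Ddc*. The sums were higher on the right in 5 of 5 mutant inverted embryos for endothelium (mean log2 0.17 ± 0.08, SD), in 4 of 5 for heart field mesoderm (0.22 ± 0.16) and foregut endoderm (0.34 ± 0.32), and lower in 5 of 5 for paraxial mesoderm (−0.74 ± 0.50). Of the genes on the other marker lists, 2 of 10 heart field genes (*Mef2c* and *Osr1*) and 1 of 9 foregut endoderm genes (*Hhex*) rose on the right in mutant inverted embryos in edgeR. In these lists, 6 and 4 had an unadjusted p below 0.05 and 5 and 2 passed in DESeq2. None of the 8 genes each for neural crest, visceral endoderm, endothelium, blood and paraxial mesoderm passed in edgeR, where 1, 0, 3, 0 and 5 had an unadjusted p below 0.05 and 1, 0, 2, 0 and 2 passed in DESeq2. Over all genes, 2.04% passed in edgeR, 3468 of 22960 had an unadjusted p below 0.05 and DESeq2 called 8.84%. The calls of *Mef2c*, *Osr1* and *Hhex* were lost in the fit of all libraries, and those of *Osr1* and *Hhex* without any one of 4 embryos each, at log2 values from 0.53 to 0.68 and from 0.85 to 1.25. The embryos 2_2 and 10_1, which had the lowest right over left of *Gal*, also had the lowest of muscle, at −1.82 and −1.64, and 19_4 had the highest of its group, at 1.38. The part of these tissues in the values of the members was not tested. For *Nptx2*, right over left less that of muscle was −0.85 ± 0.57 (SD, n = 11) in mutant rightward and 0.47 ± 0.32 (SD, n = 5) in mutant inverted embryos. For *Gal* these values were −0.40 ± 0.74 and 0.75 ± 0.63, for *Ddc* −0.31 ± 0.66 and −0.24 ± 0.28, and for *Tac2* 0.21 ± 1.16 and −0.38 ± 0.83.

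**Figure D5:**
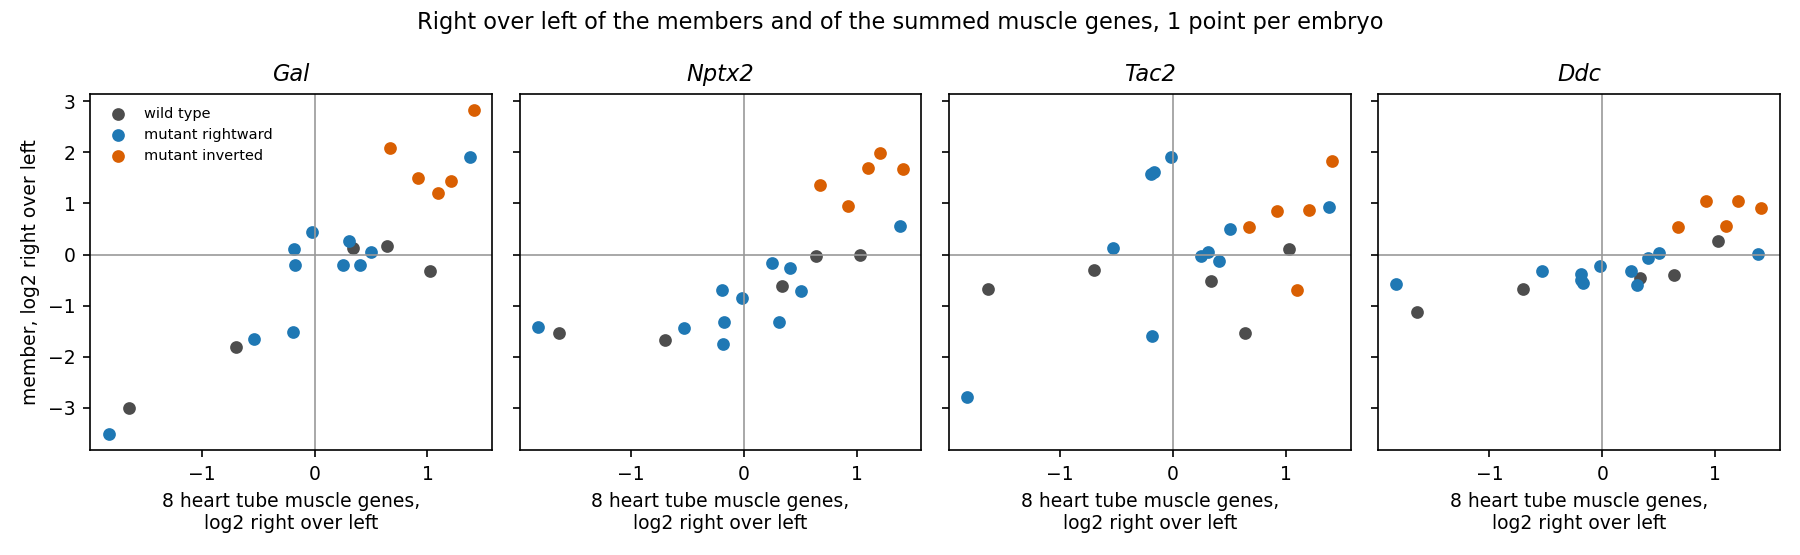
Log2 right over left of each member (y axis) against that of the sum of 8 heart tube muscle genes (x axis), with 1 point for each of 21 embryos. For *Gal*, the points of the mutant rightward group rise with muscle, while among mutant inverted embryos 2_7 has the lowest ratio of muscle and the second highest of *Gal*, and for *Nptx2* the mutant inverted embryos lie above the other embryos with a similar ratio of muscle.

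Genes whose right over left was most like that of each member over the 21 embryos, with group means removed and among 15243 genes of at least 1 CPM, were *Kcnj5*, *Tnnc1* and *Trim54* for *Gal*, at r of 0.93, 0.91 and 0.90. *Kcnj5* encodes a potassium channel of atrial and pacemaker cells and *Tnnc1* cardiac troponin C. For *Nptx2* they were *Myocd*, the cofactor myocardin, with *Syne1* and *Mtus2*, at 0.91, 0.90 and 0.89. For *Ddc* they were *Rbpms2*, *Llgl2* and *Prnp*, at 0.89, 0.89 and 0.88. For *Tac2* they were *Igfbp2*, *Tinagl1* and *Tab3*, at 0.83, 0.80 and 0.79.

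The nearest expressed protein-coding genes on both sides of each member were also tested. Of these 8 neighbours, none passed in mutant inverted embryos in edgeR, 2 had an unadjusted p below 0.05 and 1 passed in DESeq2. Over all genes, these values were 2.04%, 3468 of 22960 and 8.84%. The log2 right over left of the 8 neighbours ranged from −0.19 to 0.37. *Tesmin*, 2088 bases from *Gal*, was at −0.19 ± 0.45 (SE), and *Tmem130*, 172325 bases from *Nptx2*, at 0.37 ± 0.23. Beside *Tac2*, *Myo1a* was at 0.29 ± 0.19 and *Zbtb39* at −0.15 ± 0.15. *Grb10*, an imprinted growth regulator 32347 bases from *Ddc*, was at 0.22 ± 0.05 (SE, adjusted p = 0.073, edgeR), and *Fignl1* on its other side at 0.13 ± 0.04 (adjusted p = 0.185), where *Ddc* was at 0.83 ± 0.10.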

How the data were processed

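Libraries were made from polyA RNA of the left and right heart field of 21 embryos. Before deposit, the authors trimmed adapters, removed duplicates, mapped to GRCm39 by STAR and assigned reads to genes by featureCounts (Subread 2.0.6). The deposited values are raw counts per gene. GENCODE supplied symbols and GRCm39 coordinates, and 56310 of 56953 identifiers had a symbol. Groups came from the labels of genotype, looping direction, side and embryo, and the laterality clusters that the study drew from expression were not used.

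Low genes were removed with filterByExpr (min.prop 0.2, large.n 50, min.count 5, min.total.count 10). After TMM scaling, the quasi-likelihood test of edgeR 4.0.16 (R 4.3.3) was applied, with Benjamini-Hochberg adjustment over all genes tested and a threshold of 0.05. Right over left was fitted within each group, and its differences between groups in a fit of all 42 libraries. Each fit had a block for the embryo, which the labels name for both of its libraries. Residuals of the 2 libraries of an embryo, over 2000 genes, correlated at a median of 0.30 and above 0.1 in 18 of 21 embryos. Levels used the counts of both sides added up per embryo, with sex as a covariate. Log2 values per embryo used a prior count of 2. Among 861 pairs of libraries, none agreed within sampling noise (chi-square per gene of at least 6.75). The scripts were tested on simulated data. Alternatives were DESeq2 1.42.0, its size factors, no filter, no replicate block, a fit of all libraries, males alone, no sex term, limma 3.58.1 on mean log2 values, and each embryo left out. For the ratios per embryo, a prior count of 0.5 and scaling by library size alone were also tried. edgeR's newer method, each embryo left out for the mean ratios, and embryo 15_5 left out for the pairs of levels and the ranges, were added after seeing the data.

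The members and lists were chosen with earlier results of these data known. Beside the members, the text names fixed receptors, partners and heart genes, listed genes past the threshold, the nearest expressed protein-coding gene on each side and the 3 most alike genes.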

Additional observations from a re-analysis of the deposited data

Results flagged for a closer look

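*Nptx2* was marked because each of the 5 mutant inverted embryos was higher on the right and each of the 5 wild types higher on the left, at means that lie 2.30 apart on the log2 scale. The difference was not tested, since the gene was chosen by these values, and 2 of the wild types had nearly equal sides. No embryo stood apart by Dixon's criterion in the 16 groups of 5 embryos examined, of which chance marks about 1 in 20, and the group of 11 was not examined in this way.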

How the results depend on the processing

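The fitted right over left of the 4 members kept its sign in mutant inverted embryos under all alternatives run, including the fit without the replicate block for the pairing of sides, which gave 1.55 for *Nptx2*, 0.83 for *Ddc*, 1.86 for *Gal* and 0.86 for *Tac2*. With one embryo left out, the difference between mutant inverted and mutant rightward embryos ranged from 2.29 to 2.55 for *Nptx2*, from 1.09 to 1.21 for *Ddc*, from 1.88 to 2.35 for *Gal* and from 0.22 to 0.76 for *Tac2*. Levels near 0 changed sign. *Nptx2* between the mutant groups was at 0.00021 with edgeR's newer method and at −0.11 to 0.083 with one embryo left out, and *Ddc* at −0.014 on mean log2 values and at −0.10 to 0.10. Against wild types, leaving out one embryo gave −0.014 to 0.12 for *Ddc* and −0.017 to 1.77 for *Tac2*, the lowest without 15_5. No member's level passed the threshold under any alternative.

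Counts over all genes depended on the tool and on single embryos. For right over left in mutant inverted embryos, 468 genes became 1755 with DESeq2, 942 without the filter, 305 without the block, 141 in the fit of all libraries and 138 to 446 with one embryo left out, the lowest without 32_2. For mutant rightward embryos, 6 became 31 with DESeq2, 1 without the block and 2 to 8, and for wild types 0 became 19 with DESeq2, 2 without the filter and 1 in the fit of all libraries. For the difference between the mutant groups, 82 became 426 with DESeq2, 131 without the filter, 17 without the block, 7 in males alone and 18 to 158, the lowest without 18_2 and the highest without 19_4. For mutant rightward against wild type embryos, 0 became 2 with edgeR's newer method. For levels in that comparison, 7 became 17 with DESeq2, 1 on mean log2 values and 1 to 14. The cause was not tested. Low counts of *Gal* and *Tac2* limit the ratios of single embryos.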

Other observations

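The mutant rightward embryo 15_5, in which *Tac2* reached 30.4 CPM on the left and 43.3 on the right against at most 8.38 in the other libraries, carried a wider set of genes at unusual levels, which were looked up after their values were seen. Among the 8 genes farthest above all other libraries on both sides were *Ifit1* at 11.8 and 18.7 CPM on the left and right against at most 0.54 elsewhere, *Irf7* at 21.5 and 37.9 against 1.38 and *Isg15* at 17.8 and 26.6 against 1.20. The others included *Akr1c18*, which encodes an enzyme that breaks down progesterone, at 91.3 and 165 CPM against 6.03, *Cyp11b1* at 15.1 and 21.6 against 0.88 and *Hsd17b1* at 7.84 and 11.6 against 0.40. In this ranking of 26335 genes, the galanin receptor *Galr2* was at place 69 and *Tac2* at place 159. Its summed markers of heart field mesoderm, heart tube muscle and endothelium lay within the range of the 10 other mutant rightward embryos on both sides, while those of foregut endoderm, at 360 CPM, and blood, at 659 CPM, were the lowest of the group on the left. Those of neurons, at 55.9 CPM on the left, were the highest of the group, and on the right those of neural crest, at 88.1 CPM, and paraxial mesoderm, at 88.8 CPM, were the lowest.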
